A study of Mus musculus with 9 samples.

Results

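Knockdown of either of 2 glypicans was taken here as a single condition: the 3 sh-Gpc4 and the 3 sh-Gpc2 libraries, 6 of the 9 in the series, were compared as 1 group with the 3 sh-NT control libraries across all genes. The members were chosen by the hairpin named in each column of the deposited count table. The questions were which genes lay on the same side of control under both hairpins, and how many of the 6 knockdown libraries fell outside the range of the 3 controls. Wild-type (WT) mouse embryos were electroporated in utero at E14.5 with a construct carrying mCherry and an artificial microRNA-type hairpin (shmiRNA). In sh-Gpc4 the hairpin was against Gpc4, in sh-Gpc2 against Gpc2, and in sh-NT it was a scrambled sequence, so all groups share the electroporation, the mCherry construct, the sort and the genotype. At 48 h, at E16.5, mCherry-positive cells of the forebrain, labelled as cortical progenitors and neurons, were isolated by FACS. RNA was extracted with the Arcturus PicoPure kit and made into libraries with a NEBNext low-input kit for Illumina sequencing. The labels do not say whether libraries came from separate embryos or litters or whether embryos were pooled, and the p-values below then measure the spread between these libraries only.

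Glypicans are cell-surface proteins held in the membrane by a lipid (GPI) anchor and carrying heparan sulphate chains. The chains bind secreted signals such as FGF, Wnt, Hedgehog and BMP ligands as well as guidance and synaptic proteins, and so influence how these reach their receptors. In the developing cortex radial glia divide at the ventricle, intermediate progenitors amplify their output, and newborn excitatory neurons migrate to the cortical plate, and both glypicans are expressed there. Gpc4 is also known from later stages for a role in synapse formation.

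The promoters of the 3 genes below come from the sterol synthesis genes and the paired Hsp70 genes, both described further on. Of the sterol genes only Hsd17b7 is printed, although Msmo1 and Idi1 are described in more detail. The sequences are from RefSeq (GRCm38.p6), on the gene's own strand and ending at or before the annotated start. Capitals mark matches on either strand to CCAAT, which reads ATTGG on the other strand, or to GAANNTTC, the core of the heat shock element. Hsd17b7, an enzyme of cholesterol synthesis, is shown for the 167 bases of its 250-base window that lie in no annotated gene (chr1:169969242-169969408, minus strand). Hspa1a (chr17:34972157-34972406, minus strand) and Hspa1b (chr17:34959239-34959488, minus strand) are shown over 250 bases, of which 247 are identical between them.
Hsd17b7: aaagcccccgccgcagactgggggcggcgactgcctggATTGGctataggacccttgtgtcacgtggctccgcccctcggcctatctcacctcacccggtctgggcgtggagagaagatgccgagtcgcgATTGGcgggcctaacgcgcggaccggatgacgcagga
Hspa1a: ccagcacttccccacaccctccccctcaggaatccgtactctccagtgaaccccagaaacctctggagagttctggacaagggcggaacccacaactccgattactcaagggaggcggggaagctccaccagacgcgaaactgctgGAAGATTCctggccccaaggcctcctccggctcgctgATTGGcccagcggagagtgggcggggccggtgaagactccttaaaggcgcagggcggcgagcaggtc
Hspa1b: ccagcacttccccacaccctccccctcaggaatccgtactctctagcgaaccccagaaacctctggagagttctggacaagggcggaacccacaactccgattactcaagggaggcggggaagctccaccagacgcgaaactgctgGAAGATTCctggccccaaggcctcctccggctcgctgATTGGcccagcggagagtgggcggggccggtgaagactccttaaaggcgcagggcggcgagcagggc
Each Hsp70 window holds 1 match to GAANNTTC, which occurs in 6.8% of the 27025 promoter windows of 250 bases, and 1 to CCAAT, which occurs in 34.5%. The whole windows of Msmo1 and Hsd17b7 hold 3 CCAAT matches each, that of Idi1 holds 2, and those of Pmvk and Cyp51 hold 1 each. Of 24 sterol genes, 17 matched the promoter table by symbol, and 15 of these held CCAAT. The sterol regulatory element letters TCACNCCAC were found in 1 of the 17 and in 1.0% of all windows. For Pmvk 2 starts are listed and the first was used. These matches describe the letters of the windows only.

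Sequencing depth ran from 48045603 to 66538437 counts per library, and 27773 genes passed the filter on low counts. Before any comparison, 2 knockdown libraries stood apart. On the first principal component over 11968 genes, which held 71.6% of the variance, the controls lay between -25.8 and -13.1, sh-Gpc4 library 3 at 46.7 and sh-Gpc2 library 4 at 36.6. The other knockdown libraries lay between -19.1 and 15.8. Genes rich in G and C were low in the same libraries. The protein-coding genes with the highest GC content, at least 54.66%, had a median log2 difference from control of -0.51 in sh-Gpc4 library 3, -0.38 in sh-Gpc2 library 4 and -0.19 in sh-Gpc4 library 4, against -0.05, 0 and -0.03 in the other knockdown libraries. The part of GC content in the results below was measured by removing each library's GC trend, and that of the 2 libraries by leaving both out. Leaving out both libraries was chosen after seeing the data, as was applying the GC correction to list medians and to counts by range.

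**Figure D1:**
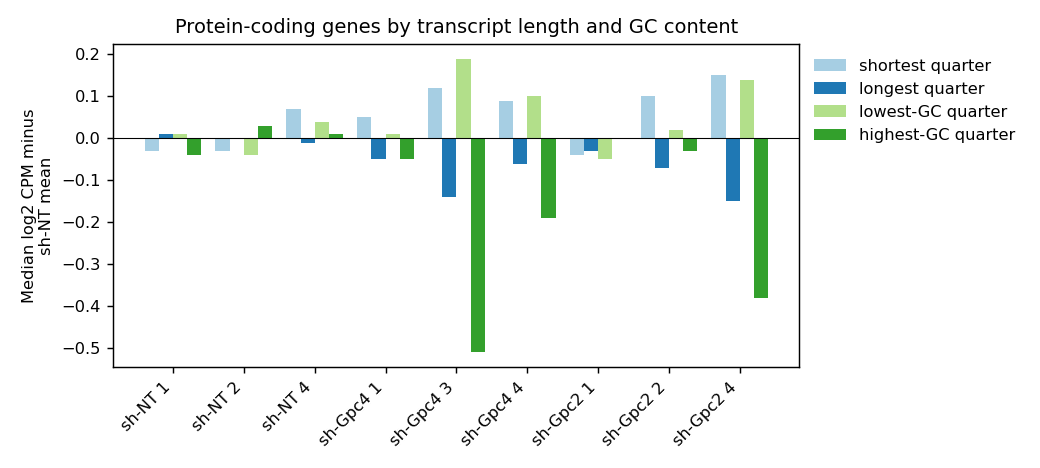
Median difference in log2 CPM from the sh-NT mean for the 3744 shortest and 3744 longest protein-coding genes by transcript and for those with the lowest and highest GC content (at most 44.9% and at least 54.66%), in each of the 9 libraries. The bar for the highest GC content reaches -0.51 in sh-Gpc4 3 and -0.38 in sh-Gpc2 4, while that of every control lies between -0.04 and 0.03.

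Markers of the labelled cells were present in every library. The 10 cortical excitatory neuron markers summed to between 3030 and 3750 CPM (counts scaled by TMM to a common library size) in the controls and between 2800 and 3440 CPM in the knockdowns. The 10 cortical progenitor markers summed to between 1720 and 1860 CPM and between 1520 and 2460 CPM. Microglial markers were also present, at 1390 to 2190 CPM in the controls and 792 to 2810 CPM in the knockdowns. Since the libraries are bulk RNA of sorted cells, fewer cells of a type and less RNA per cell cannot be told apart.

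The targeted genes overlapped between knockdowns and controls, and neither was called. Gpc4 (ENSMUSG00000031119, chromosome X of GRCm38, 52053021 to 52165252 on the minus strand) was at 165, 188 and 175 CPM in sh-NT, at 137, 99.9 and 129 CPM in sh-Gpc4 libraries 1, 3 and 4, and at 145, 216 and 116 CPM in sh-Gpc2 libraries 1, 2 and 4. In all, 5 of the 6 knockdown values lay below all controls, and sh-Gpc2 library 2 lay above them. The pooled log2 fold change was -0.32 (SE 0.20, 95% interval -0.76 to 0.12), with p = 0.214 in a two-sided exact permutation test over the 9 libraries. Gpc2 (ENSMUSG00000029510, chromosome 5, 138273655 to 138280005, minus strand) was at 200, 207 and 161 CPM in sh-NT, at 168, 70.3 and 96.6 CPM in sh-Gpc4 and at 167, 145 and 79.6 CPM in sh-Gpc2. Its pooled log2 fold change was -0.64 (SE 0.27, 95% interval -1.25 to -0.04), with 4 of 6 libraries below the control range and an exact two-sided permutation p of 0.0714. Library 1 of sh-Gpc2, at 167 CPM, lay within the control range for the gene its own hairpin targets. By hairpin, Gpc4 had log2 fold changes of -0.53 (SE 0.21) in sh-Gpc4 and -0.15 (SE 0.21) in sh-Gpc2, and Gpc2 had -0.76 (SE 0.33) in sh-Gpc4 and -0.54 (SE 0.33) in sh-Gpc2. For neither gene did edgeR call the difference between the hairpins (adjusted p 0.966). The 3 lowest values of either gene came from sh-Gpc4 libraries 3 and 4 and sh-Gpc2 library 4, the libraries with the lowest levels of GC-rich genes. With the GC trend removed the pooled values were -0.28 for Gpc4 and -0.55 for Gpc2. Leaving out sh-Gpc4 library 3 and sh-Gpc2 library 4 gave -0.18 and -0.40, and leaving out sh-Gpc2 library 2 alone gave -0.49 and -0.70.

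Across the genome the pooled comparison called no gene. The edgeR quasi-likelihood test found 0 of 27773 genes (0%) at a Benjamini-Hochberg adjusted p of 0.05, and the smallest adjusted p was 0.62. At an unadjusted p under 0.05, 898 genes (3.23%) were higher and 912 (3.28%) lower in the knockdowns. With limma voom and sample weights 0 genes were called, but 7300 (3034 higher and 4266 lower) had an unadjusted p under 0.05. A Wald test in DESeq2 called 7 genes and had 1956 at that unadjusted p. The 7 were Siah2, Stambpl1, the predicted gene Gm47096 and ENSMUSG00000119320 among the higher genes, and Zkscan1, Plagl2 and Frs2 among the lower genes, with a smallest adjusted p of 0.000215 for Zkscan1. All 7 lay outside the control range in all 6 knockdown libraries.

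Counted by range, 457 genes (1.65%) were above all 3 controls in all 6 knockdown libraries and 594 (2.14%) were below them. Each knockdown library by itself had between 26.3% and 35.8% of the genes above the control range and between 24.2% and 36.9% below it, with the largest shares in sh-Gpc4 library 3 and sh-Gpc2 library 4. On the higher side, 7882 genes were above the range in none of the 6 libraries, 6463 in 1, 4497 in 2, 3817 in 3, 2818 in 4 and 1839 in 5. On the lower side the numbers were 8018, 6649, 3860, 3485, 3118 and 2049. The counts thus declined with each further library on either side. For a gene outside the range in all 6, the two-sided exact permutation test gives p = 0.0238, the smallest that 6 against 3 libraries allow, before any correction for the number of genes.

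**Figure D2:**
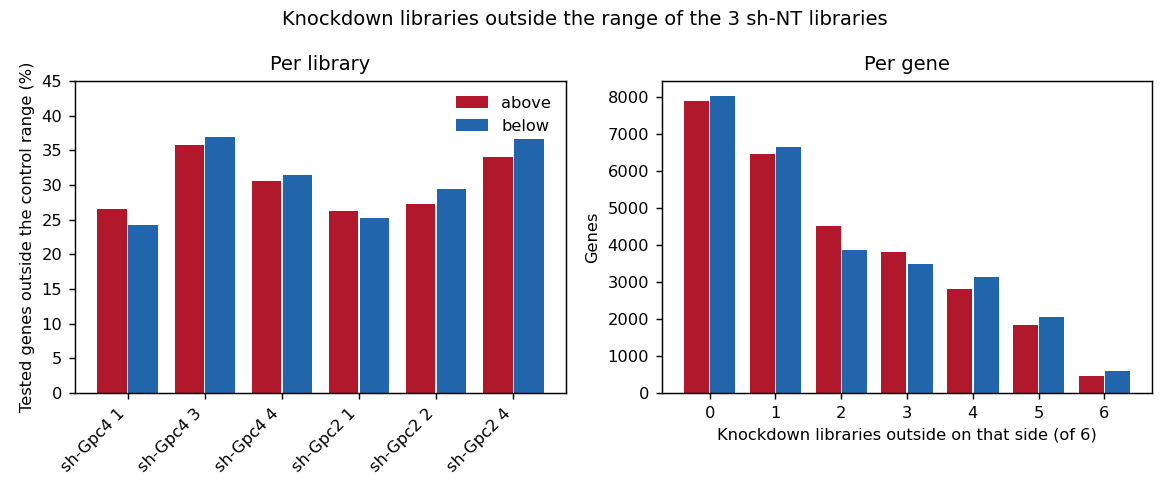
Left, percent of the 27773 tested genes above (red) and below (blue) the range of the 3 sh-NT libraries in each knockdown library. Right, number of genes by how many of the 6 knockdown libraries lie outside on that side, which ends at 457 genes above and 594 below for all 6.

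The genes on the lower side were the longer and more abundant ones. Of the 594 genes below the range, 62.5% were protein-coding, with a median transcript length of 4612 bases, a median GC content of 52.0% and a median mean level of 41.2 CPM among the protein-coding ones. Of the 457 genes above, 36.8% were protein-coding, with medians of 2572.5 bases, 48.4% GC and 14.1 CPM. Over all tested genes 53.9% were protein-coding, with medians of 3372 bases, 49.8% and 25.3 CPM. At a mean of at least 10 CPM, 117 of 11379 genes (1.03%) were above and 322 (2.83%) below. Protein-coding genes with transcripts of at least 4809.75 bases had a median log2 difference from control of -0.15 to -0.03 across the 6 knockdown libraries, and the part of transcript length in these counts was not tested. Among the 22126 genes with a GC value, 331 were above and 502 below. With the GC trend removed these were 336 and 563, of which 226 and 358 were in both. Leaving out sh-Gpc4 library 3 and sh-Gpc2 library 4 left 4 knockdown libraries, with 628 genes above and 863 below.

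Both hairpins gave the same sign for most genes. The log2 fold changes in sh-Gpc4 and in sh-Gpc2, each against sh-NT, were both above 0 for 11104 genes (40.0%) and both below 0 for 10135 (36.5%). At an unadjusted p under 0.05 in each, 198 genes (0.713%) were higher under both hairpins, 103 (0.371%) were lower under both, and 0 went in opposite directions. The same controls enter both comparisons, so these counts do not measure independent agreement. Of the 198 higher genes 153 were above the range in all 6 libraries, and of the 103 lower genes 86 were below it. By itself sh-Gpc4 had 2657 genes (9.57%) at an unadjusted p under 0.05, of which 988 were higher and 1669 lower, while sh-Gpc2 had 712 (2.56%), of which 449 were higher and 263 lower. A direct comparison of sh-Gpc4 with sh-Gpc2 in edgeR called 0 genes (0%), with a smallest adjusted p of 0.966 and 804 genes (2.89%) at an unadjusted p under 0.05. All 3 libraries of 1 hairpin were above the controls and all 3 of the other below for 12 genes, 8 with sh-Gpc4 above and 4 with sh-Gpc4 below. Without sh-Gpc2 library 2 the number of genes with the same direction and p under 0.05 under both hairpins was 817 in place of 301, without sh-Gpc2 library 1 it was 577, and without sh-Gpc2 library 4 it was 164. Without sh-Gpc4 library 3 and sh-Gpc2 library 4 together it was 144.

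The genes named next are the 12 per direction with the smallest pooled p above a mean of 1 CPM, so that their separation from control is a description. All 24 lay outside the control range in all 6 libraries, had an unadjusted p under 0.05 under each hairpin, and had an adjusted p of 0.62 in edgeR. Their log2 fold changes were of the same sign in every alternative run, which separation from all controls largely fixes in advance. The difference between the hairpins was called for none of them (smallest adjusted p 0.966 in edgeR, with intervals given for the leading genes).

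Among the higher genes, a pair encodes ubiquitin enzymes. Siah2, a ubiquitin ligase known from the hypoxia response (ENSMUSG00000036432, chromosome 3, 58674938 to 58692400, minus strand), was at 1.98, 1.79 and 2.05 CPM in sh-NT, at 3.62, 3.49 and 3.08 CPM in sh-Gpc4 and at 2.81, 2.78 and 3.76 CPM in sh-Gpc2. All 6 knockdown values exceeded the highest control by more than the whole spread of the controls. The pooled log2 fold change was 0.75 (SE 0.15, 95% interval 0.42 to 1.07), with 0.81 for sh-Gpc4 and 0.68 for sh-Gpc2, a difference of 0.13 (95% interval -0.25 to 0.50). Stambpl1, a deubiquitinating enzyme (ENSMUSG00000024776, chromosome 19, 34192229 to 34240333, plus strand), was at 9.95, 8.59 and 10.8 CPM in sh-NT, at 13.4, 13.3 and 12.8 CPM in sh-Gpc4 and at 13.0, 13.7 and 14.1 CPM in sh-Gpc2. The knockdown values were close together (SD 0.473 CPM, n = 6), and the log2 fold change was 0.45 (SE 0.10, 95% interval 0.24 to 0.67). The hairpins gave 0.43 and 0.48, a difference of -0.05 (95% interval -0.31 to 0.21).

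Enzymes of cholesterol synthesis supplied 2 of the 12 higher genes. Msmo1, which removes methyl groups from sterol intermediates (ENSMUSG00000031604, chromosome 8, 64718139 to 64733792, minus strand), was at 144, 153 and 164 CPM in sh-NT, at 210, 191 and 192 CPM in sh-Gpc4 and at 193, 175 and 189 CPM in sh-Gpc2. Control and knockdown values did not overlap, and the log2 fold change was 0.32 (SE 0.07, 95% interval 0.16 to 0.48), or 24.6% in mean CPM. Idi1, which makes the activated isoprene unit (ENSMUSG00000058258, chromosome 13, 8885501 to 8892451, plus strand), was at 25.7, 27.5 and 28.4 CPM in sh-NT, at 34.9, 34.6 and 32.2 CPM in sh-Gpc4 and at 32.3, 31.9 and 34.7 CPM in sh-Gpc2, for a log2 difference of 0.30 (SE 0.08, 95% interval 0.13 to 0.47). The hairpins gave 0.36 and 0.27 for Msmo1 and 0.32 and 0.28 for Idi1. Hilpda, a lipid droplet protein induced by low oxygen, had 20.7 ± 0.585 CPM (SD, n = 3) in sh-NT against 26.0 ± 1.64 CPM (SD, n = 6) in the knockdowns, a log2 fold change of 0.33 (SE 0.08).

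The other 7 higher genes had various roles. Hspa1b, an inducible Hsp70 chaperone, was at 0.595, 0.388 and 0.725 CPM in sh-NT, at 1.78, 1.59 and 0.751 CPM in sh-Gpc4 and at 2.75, 1.24 and 1.61 CPM in sh-Gpc2. Its log2 fold change of 1.50 (SE 0.38, 95% interval 0.66 to 2.34) was the largest of the 24, but sh-Gpc4 library 4 lay just above the highest control. Ddit3, the transcription factor CHOP of the endoplasmic reticulum stress response, was at 22.1 to 25.9 CPM in sh-NT libraries and 28.2 to 32.8 CPM (median 30.3) in the knockdowns, a log2 fold change of 0.33 (SE 0.09). Pcdh20, a protocadherin of the cell surface, was at 4.84, 3.59 and 4.83 CPM in sh-NT, at 7.91, 6.94 and 6.21 CPM in sh-Gpc4 and at 7.43, 6.86 and 5.72 CPM in sh-Gpc2, a log2 fold change of 0.63 (SE 0.15). Npy1r, a receptor for neuropeptide Y, was at 0.849 to 0.950 CPM in sh-NT libraries and at 1.18 to 1.59 CPM (median 1.34) in the knockdowns, a log2 fold change of 0.60 (SE 0.15). The remaining higher genes had log2 fold changes of 0.46 for Ing2, a histone-binding subunit of a deacetylase complex, 0.51 for Nap1l5, an imprinted gene of the nucleosome assembly protein family, and 0.79 for Tent5a, a poly(A) polymerase. For these 3 genes too the lowest knockdown value lay above the highest control.

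Among the lower genes, Zkscan1 had the smallest p, and Frs2 acts directly downstream of the FGF receptors, whose ligands bind heparan sulphate. Zkscan1, a zinc finger transcription factor (ENSMUSG00000029729, chromosome 5, 138085084 to 138107822, plus strand), was at 136, 143 and 148 CPM in sh-NT, at 117, 109 and 111 CPM in sh-Gpc4 and at 108, 114 and 105 CPM in sh-Gpc2. The 6 knockdown values and the 3 control values did not overlap, and the log2 fold change was -0.37 (SE 0.06, 95% interval -0.50 to -0.23). The hairpins gave -0.34 and -0.39, a difference of 0.05 (95% interval -0.13 to 0.22). Frs2, the adaptor that links activated FGF receptors to the Ras and ERK pathway (ENSMUSG00000020170, chromosome 10, 117069427 to 117148534, minus strand), was at 62.2, 60.7 and 64.9 CPM in sh-NT, at 49.6, 40.8 and 40.8 CPM in sh-Gpc4 and at 50.4, 49.2 and 40.6 CPM in sh-Gpc2. All 6 knockdown values lay more than 10 CPM below the lowest control, with the 3 lowest in the libraries with the fewest reads from GC-rich genes. The log2 fold change was -0.47 (SE 0.10, 95% interval -0.69 to -0.25), and it was -0.51 with the GC trend removed and -0.41 without sh-Gpc4 library 3 and sh-Gpc2 library 4.

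Flrt2, a membrane protein that repels migrating neurons through Unc5 receptors (ENSMUSG00000047414, chromosome 12, 95692226 to 95785215, plus strand), was at 41.3, 43.9 and 45.4 CPM in sh-NT, at 28.1, 28.6 and 29.5 CPM in sh-Gpc4 and at 38.8, 30.9 and 26.9 CPM in sh-Gpc2. The 3 sh-Gpc4 libraries lay close together, whereas sh-Gpc2 library 1 lay near the controls. The log2 fold change was -0.52 (SE 0.11, 95% interval -0.77 to -0.26). Plagl2, a zinc finger transcription factor (ENSMUSG00000051413, chromosome 2, 153227759 to 153241426, minus strand), had 22.9 ± 0.625 CPM (SD, n = 3) in sh-NT against 16.7 ± 1.52 CPM (SD, n = 6) in the knockdowns, a log2 fold change of -0.46 (SE 0.10). Cep170, a protein of the mature centriole and of microtubules, was at 374 to 405 CPM and 303 to 351 CPM (median 313), a log2 fold change of -0.29 (SE 0.07). Afap1, which cross-links actin filaments, was at 342 to 440 CPM and 258 to 318 CPM (median 291), a log2 fold change of -0.38 (SE 0.10). Mvb12b, a subunit of the ESCRT-I complex of endosomal sorting, was at 71.5, 83.5 and 75.8 CPM in sh-NT, at 46.5, 32.1 and 38.8 CPM in sh-Gpc4 and 60.5, 61.1 and 33.2 CPM in sh-Gpc2, and its log2 fold change of -0.76 (SE 0.21) was -0.56 with the GC trend removed. Its lowest values were again those of sh-Gpc4 libraries 3 and 4 and sh-Gpc2 library 4. The other 5 genes, Secisbp2l, Asb1, Zscan2, Nfe2l3 and Tcte1, had log2 fold changes between -0.61 and -0.35. With the GC trend removed Zscan2 was below the range in 5 libraries with -0.25 and Tcte1 in 4 with -0.19, while the other 10 lower and all 12 higher genes stayed outside it in 6.

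**Figure D3:**
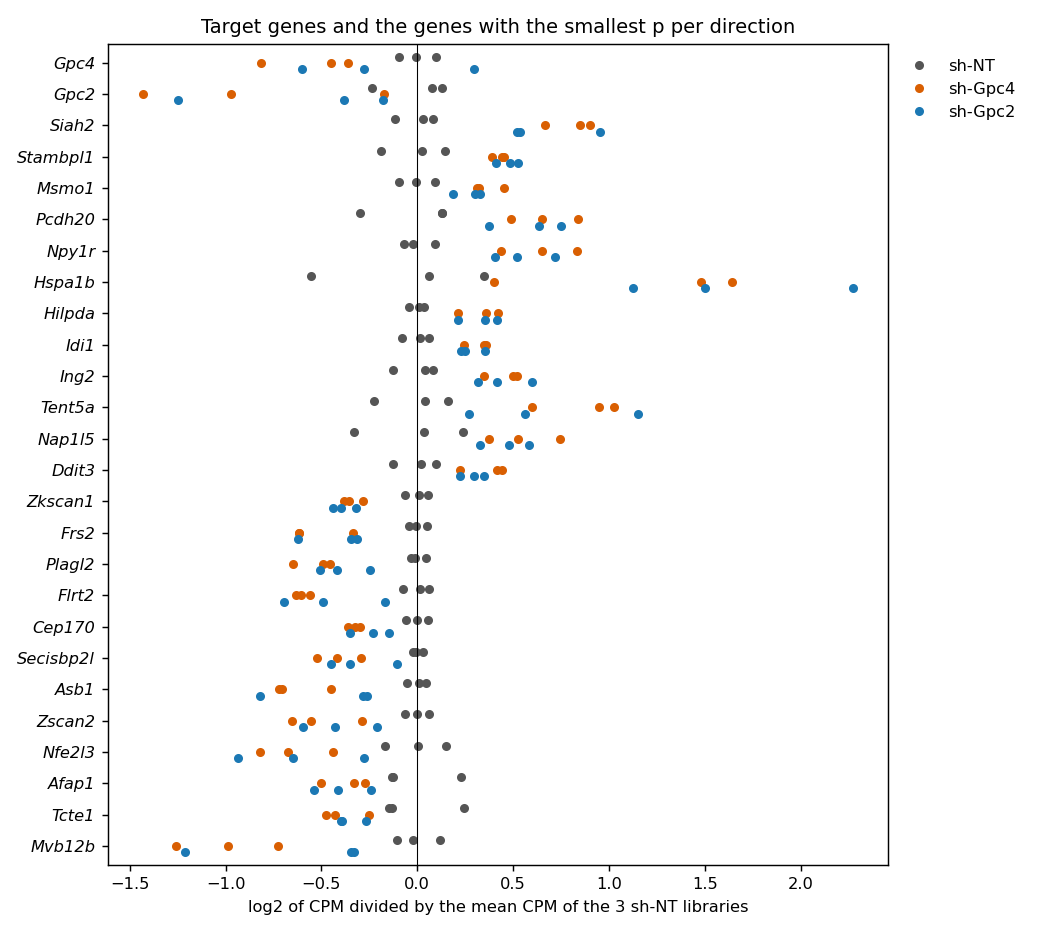
Each point is 1 library (grey sh-NT, orange sh-Gpc4, blue sh-Gpc2), placed by the log2 of its CPM over the mean of the 3 controls, for the target genes and the 24 named genes. Knockdown points of the 12 higher genes lie right of all grey points and those of the 12 lower genes left of them, while Gpc4 and Gpc2 points overlap the controls.

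Below a mean of 1 CPM, 207 of 9010 genes were above the range in all 6 libraries and 127 below. On the higher side the 3 with the lowest p were Gpr50, an orphan receptor related to the melatonin receptors, Pou4f3, a transcription factor of sensory hair cells, and Cbln4, a secreted synaptic organizer, with log2 fold changes of 1.61, 1.20 and 1.41. Cbln4 was at 0.209, 0.304 and 0.159 CPM in sh-NT libraries and at 0.280 CPM in sh-Gpc4 library 4, which overlapped them, against 0.629 to 0.773 CPM in the other 5 knockdown libraries. The 3 lower genes were Slc16a11, a transporter of the monocarboxylate family, Sprn, which encodes a prion-like protein, and S1pr4, a sphingosine phosphate receptor, with -1.27, -0.73 and -1.42. At these levels a library holds few reads of a gene, and counting error adds to the spread. The filter on low counts asks for reads in only as many libraries as a group holds. A gene can thus pass it through the group where it is high. Gpr50 was highest in sh-Gpc2, at 0.194, 0.210 and 0.203 CPM, and S1pr4 in sh-NT, at 0.354, 0.270 and 0.283 CPM. For such genes the separation from control is partly set by the filter.

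The sterol synthesis list, with 24 genes that all passed the filter, had more members above control than below. Of its members, 16 had a pooled log2 fold change above 0 (53.0% of all genes did) and 8 below 0, with a median of 0.11 against 0.02 over all genes. The edgeR test called 0 members, and 6 had an unadjusted p under 0.05, all higher (3.23% of all genes were higher at that p). Above the control range in all 6 libraries were 5 members, Msmo1, Idi1, Pmvk, Cyp51 and Hsd17b7 (1.65% of all genes were), and 0 were below it. The list mean was above the control range in 3 knockdown libraries, at 0.18, 0.17 and 0.11 over the control mean on the log2 scale in sh-Gpc4 library 1 and sh-Gpc2 libraries 1 and 2. It was slightly below the control mean, at -0.06, -0.05 and -0.07, in sh-Gpc4 libraries 3 and 4 and sh-Gpc2 library 4. Cyp51 and Hsd17b7 were named after their values were seen. All lists were chosen with earlier results of these data known, so their counts beside those of all genes are a description. Hmgcs1, which makes the precursor of mevalonate, was at 418, 447 and 486 CPM in sh-NT, at 561, 525 and 480 CPM in sh-Gpc4 and at 556, 514 and 523 CPM in sh-Gpc2, a log2 fold change of 0.22 (SE 0.07). In this gene sh-Gpc4 library 4 alone overlapped the controls. Pmvk, a mevalonate pathway kinase, was at 47.3, 44.8 and 50.6 CPM, 55.8, 58.6 and 53.0 CPM, and 51.0, 55.7 and 57.2 CPM, a log2 fold change of 0.22 (SE 0.08). Its lowest knockdown value lay just above the highest control. Cyp51, which demethylates lanosterol, had a mean of 178 ± 7.51 CPM (SD, n = 3) in sh-NT and 198 ± 9.83 CPM (SD, n = 6) in the knockdowns, and Hsd17b7 had 30.6 ± 0.827 and 34.2 ± 1.71 CPM.

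Not every member was above control. Srebf2, the transcription factor that drives these genes, was at 193, 245 and 197 CPM in sh-NT, at 182, 68.7 and 90.7 CPM in sh-Gpc4 and at 236, 184 and 75.7 CPM in sh-Gpc2, a log2 fold change of -0.60 (SE 0.37). Its 3 lowest values were in the libraries low in GC-rich genes, and with the GC trend removed it was -0.44. Srebf2 was named after its values were seen. The number of members above the range in all 6 was 13 when sh-NT library 4, the control with the highest list mean, was left out. Over all genes 1524 of 28588 were above it in that run. The number of members was 2, Idi1 and Msmo1, with the GC trend removed, with Pmvk and Hsd17b7 above in 5 and Cyp51 in 4. The median of the list was 0.11 with the GC trend removed and 0.11 without sh-Gpc4 library 3 and sh-Gpc2 library 4, where 20 of 24 members were above 0. It was 0.07 without sh-NT library 2.

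**Figure D4:**
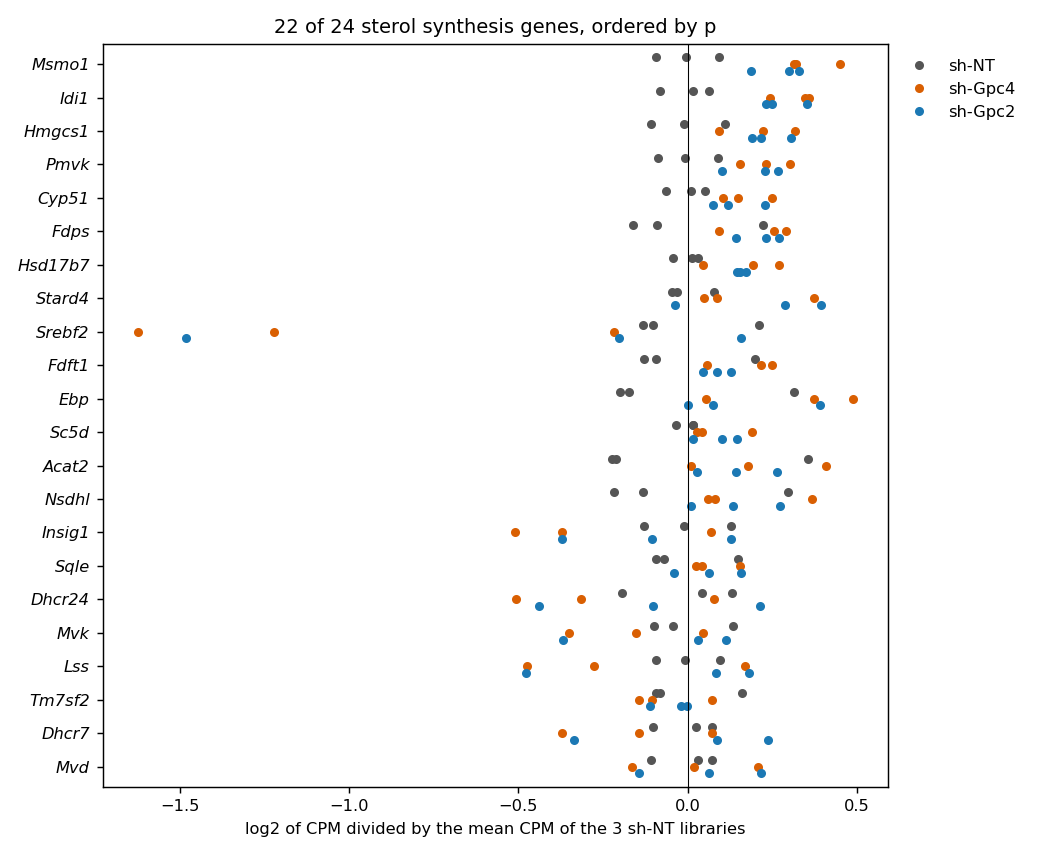
Of the 24 sterol synthesis genes, 22 are drawn, ordered by pooled p, with 1 point per library as the log2 of its CPM over the control mean. The upper rows, from Msmo1 with 0.32 and Idi1 with 0.30, have all or most knockdown points right of the controls, while Srebf2 has 3 points far to the left.

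Of 24 heat shock genes, all tested, 18 had a log2 fold change above 0 (53.0% of all genes did), with a median of 0.16. Above the range in all 6 libraries were 3 members, Hspa1b, Hspe1 and Dnajb4 (1.65% of all genes were), the last named after its value was seen, and 0 were below it. At an unadjusted p under 0.05 there were 6 members, all higher (3.23% of all genes were). Hspa1a, the near-identical neighbour of Hspa1b whose promoter is printed above, was at 12.3, 9.45 and 13.1 CPM in sh-NT, at 38.3, 23.0 and 10.9 CPM in sh-Gpc4 and at 51.6, 32.5 and 28.4 CPM in sh-Gpc2, a log2 fold change of 1.41 (SE 0.39). Library 4 of sh-Gpc4 lay within the control range for this gene and the other 5 far above it. Reads that fit both copies may have been assigned to either or to neither, so the levels of Hspa1a and Hspa1b are uncertain. Hspa5, the chaperone of the endoplasmic reticulum, was at 988, 1040 and 1240 CPM in sh-NT, at 1480, 1310 and 1080 CPM in sh-Gpc4 and at 1420, 1430 and 1550 CPM in sh-Gpc2, a log2 fold change of 0.34 (SE 0.12). Hspe1, a mitochondrial co-chaperone, was at 88.7 to 94.9 CPM and 97.0 to 119 CPM, a log2 fold change of 0.23 (SE 0.08).

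The list mean was above the control range in 5 of 6 knockdown libraries, by 0.24 to 0.38 over the control mean on the log2 scale, and at -0.01 in sh-Gpc4 library 4. Without that library 7 members were above the range in all the others, and without sh-NT library 4 the number was 6. Over all genes these runs gave 634 of 28415 and 1524 of 28588. The median was 0.09 without sh-Gpc4 library 3 and sh-Gpc2 library 4. The factors that drive these genes had log2 fold changes of -0.13 (SE 0.16) for Hsf1 and -0.16 (SE 0.11) for Hsf2, both named after their values were seen. In the ATF4 target list, which includes Ddit3, 11 of 22 members were above 0 and the median was 0.01.

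Immediate early genes, which cells switch on within minutes of stimulation or stress, split in direction. Of 22 members 15 were above 0 (53.0% of all genes were), with a median of 0.19, and 5 had an unadjusted p under 0.05 on the higher side and 1 on the lower (3.23% and 3.28% of all genes). The median ranged widely, at 0.09 without sh-Gpc4 library 1, 0.11 without sh-NT library 1, 0.12 without sh-Gpc2 library 1, 0.30 without sh-Gpc4 library 3 and 0.05 among members above 5 CPM in at least 3 libraries. Klf6, a zinc finger factor, was at 183, 158 and 169 CPM in sh-NT, at 274, 263 and 187 CPM in sh-Gpc4 and at 272, 191 and 271 CPM in sh-Gpc2, a log2 fold change of 0.52 (SE 0.14) with all 6 libraries above the range. Klf4 and Fos were above it in 5 libraries each, with log2 fold changes of 0.72 (SE 0.24) and 0.44 (SE 0.15). Egr1, another zinc finger factor induced by ERK, went the other way and was below the range in all 6, with 419 ± 44.7 CPM (SD, n = 3) in sh-NT and 258 ± 90.3 CPM (SD, n = 6) in the knockdowns, a log2 fold change of -0.70 (SE 0.27). Egr1 was named as the only member below the range in all 6 (2.14% of all genes were), and Klf6 was the only one above it (1.65% were). Among targets of p53 (Trp53) Cdkn1a, an inhibitor of the cell cycle, was above the range in all 6 with a log2 fold change of 0.45 (SE 0.14), in a list whose median was 0.00. It was the only such member of 22 tested, against 1.65% of all genes.

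Interferon response genes, the antiviral set, had 25 of 28 members above 0 (53.0% of all genes were). Their median was 0.29, but 0 members were above the range in all 6 libraries. The controls differed among themselves in this list, with list means of -0.15, 0.50 and -0.35 on the log2 scale relative to the control mean in sh-NT libraries 1, 2 and 4. The median log2 fold change was 0.62 without sh-NT library 2, 0.17 without sh-NT library 4, 0.18 without sh-NT library 1 and 0.44 without sh-Gpc4 library 3. Rsad2 was at 9.41, 11.8 and 5.71 CPM in sh-NT, at 21.5, 19.5 and 28.3 CPM in sh-Gpc4 and at 18.0, 6.07 and 25.4 CPM in sh-Gpc2, a log2 fold change of 1.14 (SE 0.41), with sh-Gpc2 library 2 among the controls. Ifit1 and Ifit3 had 0.81 (SE 0.31) and 0.96 (SE 0.38). Of 20 microglial markers, 18 were above 0 with a median of 0.39 and 0 above the range in all 6, and their list mean in sh-Gpc2 library 2 was -1.03 relative to the control mean. In sh-Gpc4 library 3 the microglial mean was 0.29 and the interferon mean -0.05. The part of microglial RNA in the interferon result was not tested.

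Most heparan sulphate proteoglycans had log2 fold changes below 0. Of 13 tested core proteins of 14 listed, 12 had a log2 fold change below 0 (47.0% of all genes did), and the median was -0.28. The target genes Gpc4 and Gpc2 are among them. Gpc1, a glypican of neurons, was at 46.7, 47.3 and 48.9 CPM in sh-NT, at 43.2, 31.4 and 38.6 CPM in sh-Gpc4 and at 45.5, 46.3 and 30.4 CPM in sh-Gpc2, a log2 fold change of -0.28 (SE 0.14), and was the only one below the range in all 6. Over all genes 2.14% were below it in all 6. With the GC trend removed Gpc1 had -0.03. Sdc3, a syndecan of neurons, had 79.4 ± 5.87 CPM (SD, n = 3) in sh-NT and 57.0 ± 17.0 CPM (SD, n = 6) in the knockdowns, and Hspg2, the matrix proteoglycan perlecan, had a log2 fold change of -0.68 (SE 0.35). The list mean was at -0.88 in sh-Gpc4 library 3, -0.77 in sh-Gpc2 library 4 and -0.54 in sh-Gpc4 library 4, against -0.21, -0.07 and 0.06 in the other 3. Without sh-Gpc4 library 3 and sh-Gpc2 library 4 the median was -0.15, without sh-Gpc2 library 2 it was -0.46, and with the GC trend removed it was -0.25. The enzymes that build and edit the chains, with 24 tested of 27, had 10 members above 0, a median of -0.05 and 0 members outside the range in all 6. The partners of glypicans, with 15 tested of 16, had 6 above 0 and a median of -0.03.

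Among pathways whose ligands bind heparan sulphate, the FGF, Hedgehog and Wnt lists had medians below 0 in the main fit and the BMP list did not. With the GC trend removed the Wnt median was close to 0. FGF receptors and ERK feedback genes had 14 of 20 members below 0 (47.0% of all genes were), with a median of -0.16. It was -0.09 without sh-Gpc4 library 3 and sh-Gpc2 library 4 and -0.10 with the GC trend removed. Frs2 and Frs3, the 2 docking adaptors of the FGF receptors, were below the range in all 6 (2.14% of all genes were). Frs3 was at 2.69, 2.77 and 2.92 CPM in sh-NT, at 2.34, 2.14 and 2.64 CPM in sh-Gpc4 and 2.45, 2.23 and 1.57 CPM in sh-Gpc2, a log2 fold change of -0.32 (SE 0.16) that was -0.03 with the GC trend removed. Dusp6, the phosphatase that ERK induces and that shuts ERK off, went the other way. It was at 38.2, 36.4 and 44.0 CPM in sh-NT, at 50.1, 64.5 and 58.7 CPM in sh-Gpc4 and at 56.4, 37.7 and 67.2 CPM in sh-Gpc2, a log2 fold change of 0.50 (SE 0.17), with sh-Gpc2 library 2 inside the control range and the other 5 above it. Ptpn11, the phosphatase SHP2 that binds Frs2, had -0.34 (SE 0.16).

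The Notch list, genes by which neighbouring progenitors hold each other back from becoming neurons, had 21 of 26 tested members below 0 and a median of -0.26, which was -0.14 without sh-Gpc4 library 3 and sh-Gpc2 library 4 and -0.15 with the GC trend removed. Its effector Hey1 was above the range in all 6, at 46.7, 48.3 and 43.4 CPM in sh-NT, at 59.1, 52.9 and 50.0 CPM in sh-Gpc4 and 53.0, 75.8 and 50.4 CPM in sh-Gpc2, a log2 fold change of 0.30 (SE 0.13). Rbpj, the DNA-binding partner of the Notch receptor, was below the range in all 6 by a small margin, at 118 ± 2.37 CPM (SD, n = 3) and 108 ± 3.54 CPM (SD, n = 6), a log2 fold change of -0.12 (SE 0.06). Hey1 was the only member above in all 6 and Rbpj the only one below, against 1.65% and 2.14% of all genes. The ligand Dll1 had -0.62 (SE 0.30). The Hedgehog list had 11 of 13 tested members below 0 and a median of -0.38, which was -0.17 without the same 2 libraries and -0.23 with the GC trend removed. The controls differed in its list mean, at 0.02, 0.23 and -0.25 in sh-NT libraries 1, 2 and 4. The mean was below that range in 3 knockdown libraries. It lay within it, at -0.23, -0.02 and 0.10, in sh-Gpc4 library 1 and sh-Gpc2 libraries 1 and 2. Outside the range in all 6 were 0 members. The Hedgehog member with the smallest p, the factor Gli2, had -0.64 (SE 0.31). In the BMP and TGF-beta list 10 of 21 tested members were above 0 and the median was 0.00. It was 0.04 with the GC trend removed and -0.03 without the same 2 libraries. Id1, a target of BMP signalling that blocks differentiation factors, was above the range in all 6, at 29.2 to 30.6 CPM in sh-NT libraries and 31.8 to 46.8 CPM in the knockdowns, a log2 fold change of 0.36 (SE 0.12). Id3, its relative, had 0.92 (SE 0.37), and the receptor Acvr2a was below the range in all 6 with -0.17 (SE 0.08). Id1 and Acvr2a were the only members outside it in all 6, against 1.65% of all genes above and 2.14% below. Wnt targets and receptors had 17 of 23 tested members below 0, a median of -0.10 and 0 members outside the range in all 6. The median was -0.07 without the same 2 libraries. With the GC trend removed it was -0.03, and 11 members were above 0.

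Axon guidance genes formed the largest list on the lower side. Of 49 tested members 41 were below 0, the median was -0.23, 6 had an unadjusted p under 0.05, all lower, and 18 were below the range in at least 5 of 6 libraries (9.52% of all genes were). Flrt2 and Sema6d were below it in all 6 (2.14% of all genes were). Sema6d, a semaphorin, was at 152, 158 and 149 CPM in sh-NT, at 125, 104 and 117 CPM in sh-Gpc4 and at 145, 135 and 104 CPM in sh-Gpc2, a log2 fold change of -0.33 (SE 0.11). Plxna2, a semaphorin receptor, was at 704 ± 62.5 CPM (SD, n = 3) and 543 ± 91.5 CPM (SD, n = 6), and Slit2, a ligand of the Robo receptors, had -0.36 (SE 0.13). Library 1 of sh-Gpc2 lay nearest to control, with a list mean of 0.03, and without it 16 members were below the range in all the other 5. Over all genes 1599 of 28530 were below it in that run. Without sh-NT library 4 the number of members was 5, and over all genes it was 1748 of 28588. The median was -0.14 without sh-Gpc4 library 3 and sh-Gpc2 library 4, where 9 of 49 members were above 0.

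The integrin and matrix list had 18 of 26 tested members below 0 (47.0% of all genes were). Its median was -0.23, and it was -0.10 without the same 2 libraries. Without sh-NT library 2 the median was -0.14. Lama4 and Lamb1, both laminin chains, were below the range in all 6 (2.14% of all genes were). The number of such members was 4 without sh-NT library 1 and 4 without sh-Gpc2 library 2. Over all genes these runs gave 1275 of 28401 and 1316 of 28418. Lama4, a chain of blood vessel laminin, was at 0.772, 1.25 and 1.10 CPM in sh-NT, at 0.599, 0.525 and 0.589 CPM in sh-Gpc4 and at 0.547, 0.742 and 0.407 CPM in sh-Gpc2, a log2 fold change of -0.86 (SE 0.21). Lamb1 had -0.48 (SE 0.22) and fibronectin, Fn1, -0.40 (SE 0.18). Endothelial markers had 7 of 9 tested members below 0 with a median of -0.83, and mural markers 8 of 10 with a median of -0.59. The endothelial list mean was -0.90 in sh-NT library 1, below all 6 knockdown libraries (-0.64 to -0.30), so that no knockdown library lay outside the controls. The mural list mean was below the control range in 5 of 6 libraries. Their summed levels were 63.7 to 78.2 CPM in the controls against 67.9 to 79.4 CPM in the knockdowns, and 28.0 to 37.1 CPM against 16.9 to 32.1 CPM. The part of vascular cells in the laminin values was not tested.

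Lists of the cortical lineage had medians near that of all genes. The median log2 fold change was 0.01 over 29 radial glia genes, -0.06 over 20 intermediate progenitor genes, -0.05 over 28 genes of migrating neurons, 0.02 over 17 upper-layer and 0.00 over 17 deep-layer genes. The S phase list, with 44 genes, had -0.01, and the G2 and mitosis list, with 45, had 0.06. List means by library were less even than these medians. The S phase mean was below the control range in 5 libraries, at -0.24 to -0.13, and at 0.40 in sh-Gpc2 library 2. The G2 and mitosis mean was below it in 4 and at 0.43 in the same sh-Gpc2 library, and the intermediate progenitor mean was below it in 5. In these lists Hopx and Rorb alone stood outside the range in all 6 (1.65% of all genes were above it and 2.14% below). Hopx, a homeodomain protein of radial glia, was above it in all 6, at 0.595, 0.591 and 0.354 CPM in sh-NT libraries and 0.659 to 1.22 CPM in the knockdowns, a log2 fold change of 0.78 (SE 0.26). Rorb, a nuclear receptor of layer identity, was below it in all 6 with 42.5 CPM in sh-NT, at 37.0 CPM in the knockdowns and a log2 fold change of -0.20 (SE 0.07). Emx1, a homeodomain factor of the dorsal forebrain, had -0.88 (SE 0.37) but was not below the range in all 6.

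Genes of protein synthesis and respiration mostly had small values above 0. Among cytoplasmic ribosomal proteins 55 of 57 members were above 0 (53.0% of all genes were). The median was 0.12, and 34 were above the range in at least 5 of 6 libraries (8.27% of all genes were). Rpl8, with 209 CPM in sh-NT libraries and 234 CPM in the knockdowns, was the only one above in all 6 (1.65% of all genes were). The list mean was 0.22 in sh-Gpc4 library 3 and 0.23 in sh-Gpc2 library 4, and -0.08, below the controls, in sh-Gpc2 library 1. Respiratory chain genes had 35 of 38 above 0 and a median of 0.12, with 0.16 (SE 0.07) for Ndufa10, the member with the smallest p. Their list mean in sh-Gpc2 library 1 was -0.07, also below the controls. Both medians were 0.06 without sh-Gpc4 library 3 and sh-Gpc2 library 4. The microRNA machinery, which processes hairpins such as those introduced here, had 13 of 16 members below 0 and a median of -0.07. Below the range in all 6 was 1 member (2.14% of all genes were). Tnrc6c, a silencing factor, was below the range in all 6 with -0.38 (SE 0.14), and Drosha, the nuclear enzyme that cuts out hairpins, was at 182, 199 and 216 CPM in sh-NT, at 166, 89.3 and 123 CPM in sh-Gpc4 and 173, 185 and 93.5 CPM in sh-Gpc2, a log2 fold change of -0.53 (SE 0.23). The glycolysis and hypoxia list, with 26 genes, had a median of 0.02, and Ankrd37, a gene induced by low oxygen, was above the range in all 6 with 0.39 (SE 0.14). It was the only such member, against 1.65% of all genes.

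Markers of other cells differed between libraries, controls included. GABAergic and ventral markers had 9 of 13 tested members below 0 and a median of -0.40. Dlx2, a factor of ventral progenitors, was at 6.47 CPM in sh-NT library 1 and at 0.0814 to 1.24 CPM in the other 8, so that its log2 fold change of -2.79 rests on that control. Oligodendrocyte precursor markers had a median of -0.47 over 6 tested members, with -1.16 in sh-Gpc4 and -0.02 in sh-Gpc2, a difference that was not tested. Their list mean was below the control range in the 3 sh-Gpc4 libraries, at -0.70, -1.48 and -0.81, and in sh-Gpc2 library 1, at -0.53. Medians were 0.21 for erythroid markers over 8 members, 0.24 for meningeal markers over 6, 0.03 for Cajal-Retzius markers over 10 and 0.01 for choroid plexus markers over 3. The cortical progenitor markers had 0.05 and the excitatory neuron markers -0.06. Of all 38 lists, 18 had a median above 0 and 20 below, and none had its list mean outside the control range on the same side in all 6 knockdown libraries.

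**Figure D5:**
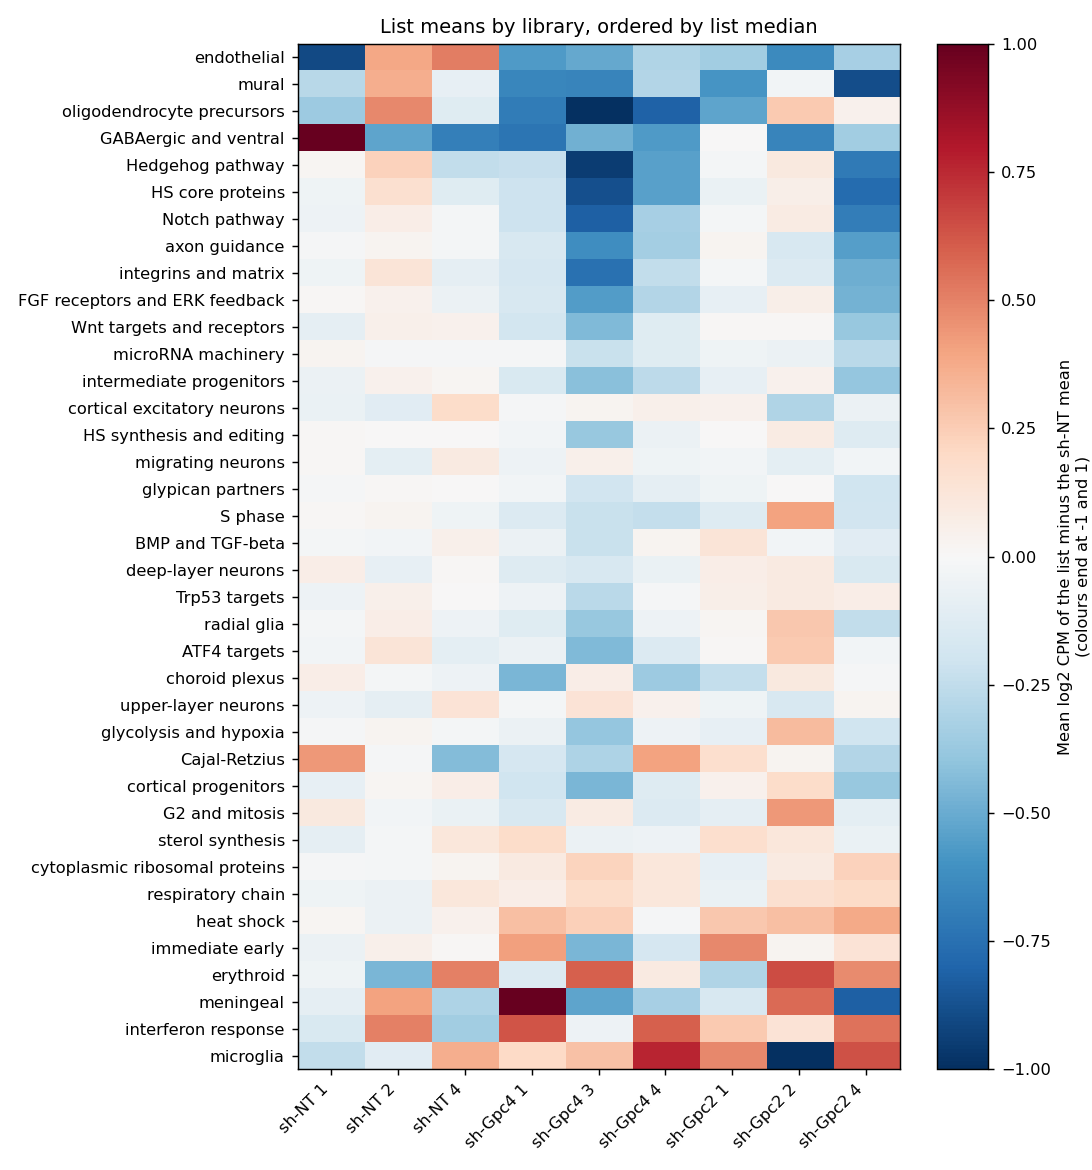
Mean log2 CPM of each of the 38 gene lists in each library, relative to the mean of the 3 controls, with lists ordered from the lowest median log2 fold change (endothelial, -0.83) to the highest (microglia, 0.39). The blue block of pathway lists is darkest in sh-Gpc4 3 and sh-Gpc2 4, and no row has 1 colour outside the control range across all 6 knockdown libraries.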

How the data were processed

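RNA of 9 sorted libraries, 3 per hairpin, was measured. Values in the deposited table are unnormalized counts of reads for each gene, which the authors made with featureCounts of Subread, per the submitters' processing notes, which name GRCm38 and mm10. No source used here gives the aligner, the annotation or the strand setting, so reads of overlapping genes cannot be separated. Columns name a hairpin and a number that does not match the titled replicates, so the main fits used them by group only. The number entered only the replicate block run and the correlations of same-numbered libraries. Of 78275 gene IDs, 51486 (65.8%) matched GENCODE M21, which gave symbols and coordinates, and 5647 of the tested genes had no entry.

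The deposited counts were tested in R 4.3.3 with the edgeR 4.0.16 quasi-likelihood test, TMM scaling, the default filter and 1 coefficient for the 6 knockdown libraries. Adjusted p-values are by Benjamini-Hochberg over 27773 genes. A fit with 1 coefficient per group gave the hairpins' values. CPM are TMM-scaled. Each SE was derived from the log2 fold change and the F value of its test. The steps were tested on simulated data. Same-group libraries differed beyond sampling noise (a chi-square of 7.65 to 81.7 per degree of freedom), so none was treated as a duplicate.

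Named genes are Gpc4 and Gpc2, the 12 per direction with the smallest pooled p among genes with a symbol, a mean of at least 1 CPM and the same sign under both hairpins, up to 3 per direction below 1 CPM, and up to 4 members per list. Predicted, small RNA and 6 sex-linked genes were left out. Others are marked as named later. Single-gene results for 2 sterol list members are not reported here, though list counts include them. The members and the 38 lists were chosen with earlier results of these data known. Alternatives were DESeq2 1.42.0 size factors and Wald test, limma 3.58.1 voom, other filters, 1 coefficient per group, a replicate block, a GC trend and leaving out libraries.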

Additional observations from a re-analysis of the deposited data

Results flagged for a closer look

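In 5 results 1 of the 6 knockdown libraries lay far from the others, by a gap over 0.625 of the whole range, which chance gives in about 1 in 20 groups. The check covered Gpc4, Gpc2, the 12 named genes per direction and the 38 list means. With that many checks some such gaps arise by chance. For Flrt2 the gap was 0.665 of the range, with sh-Gpc2 library 1 at 38.8 CPM near the controls. For the list means it was 0.824 for S phase, 0.688 for microglia and 0.701 for cortical excitatory neurons, each with sh-Gpc2 library 2 apart, and 0.653 for heat shock with sh-Gpc4 library 4 apart. In sh-Gpc2 library 2 the S phase mean was 0.40, the microglial mean -1.03 and the excitatory neuron mean -0.30 relative to control. The hairpins lay on opposite sides of the control mean in the list mean of p53 (Trp53) targets, with sh-Gpc4 minus sh-Gpc2 at -0.184. The libraries were at -0.05, -0.27 and -0.01 in sh-Gpc4 and at 0.06, 0.09 and 0.07 in sh-Gpc2. The controls ran from -0.05 to 0.05, and of sh-Gpc4 only library 3 lay below them. The difference between the hairpins was not tested.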

How the results depend on the processing

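Sign was followed across the alternative runs for Gpc4, Gpc2, the 12 named genes per direction and up to 4 members of each of 13 lists. None of these changed sign in any run that tested it. For genes outside the control range in all 6 libraries, leaving out a library could hardly change the sign. Other named genes, such as Egr1, Cdkn1a, Hopx and Dlx2, were not followed in this way. Of the 13 list medians recomputed under every scaling, filter and left-out library, 12 kept their sign, and that of BMP and TGF-beta, at 0, did not. With the GC trend removed or sh-Gpc4 3 and sh-Gpc2 4 left out, the medians of intermediate progenitors, upper-layer neurons, S phase, choroid plexus and cortical excitatory neurons, all within 0.06 of 0, changed side. The count of 0 called genes held under every alternative except the DESeq2 Wald test, which called 7. Smallest adjusted p-values were 0.124 with limma voom, 0.303 to 0.922 with 1 library left out, and 0.501 to 0.987 otherwise in edgeR. For single genes the DESeq2 test gave adjusted p-values of 0.000215 for Zkscan1, 0.0151 for Stambpl1, 0.0161 for Siah2 and Plagl2, and 0.0338 for Frs2. A filter of more than 5 CPM in 3 libraries gave 243 genes above the range and 286 below in all 6, and 117 with the same direction and p under 0.05 under both hairpins. The last count was 555 without a filter, 28 at p under 0.01 and 144 without sh-Gpc4 3 and sh-Gpc2 4.

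With 1 library left out, 560 to 1524 genes were above and 605 to 1748 below in all remaining libraries, since fewer libraries must lie outside or fewer controls set the range. The counts above and below were 1152 and 1275 without sh-NT 1, 834 above without sh-NT 2, 1524 and 1748 without sh-NT 4, 1166 and 1599 without sh-Gpc2 1, and 1201 and 1316 without sh-Gpc2 2. The same-direction count ran from 164 to 817. A replicate block by column number called 0 genes, with a smallest adjusted p of 0.574 and 2395 genes at an unadjusted p under 0.05 against 1810 without it. Same-numbered libraries correlated at -0.1 to 0.68 after group means were removed. Differently numbered libraries were not set beside them, so these values cannot decide whether the numbers pair libraries. Depth limits genes below 1 CPM, where a library holds few reads.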
